A study of Mus musculus with 6 samples.

Results

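Hedgehog is a secreted signal that the receptor Ptch1 and the transducer Smo read at the primary cilium, and that ends in the Gli transcription factors. The 10 genes described here sit around that core. They are the ligand-binding co-receptors Gas1, Cdon and Boc, the cilium-bound regulators Kif7, Evc, Evc2 and Gpr161, and Scube2, Disp1 and Hhat, which process the ligand or free it from the cell that makes it. They were taken by gene symbol from the authors' deposited table, which held all 10 among 23170 genes. In the skeleton the pathway drives growth of cartilage and the forming of bone cells, and human EVC and EVC2 are the genes of a chondrodysplasia, Ellis-van Creveld syndrome.

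RNA was sequenced from the bone under the joint cartilage of the mandibular condyle, the end of the lower jaw in the temporomandibular joint, in wild type mice. The labels put 3 libraries in a sham operation group and 3 in a partial discectomy group, in which part of the joint disc was removed. Surgery was on 1 side and the operated joint was sampled, at an age labelled P6w+PO2w in both groups, that is 6 weeks and a further 2 weeks whose prefix is not explained. The sample descriptions and the table mark the groups LPD and Rctrl, so whatever else those letters mean cannot be told apart from the operation, and no label says if each library is 1 mouse or a pool. The title of the series places the comparison in work on Hedgehog signalling in Gli1-bearing osteogenic progenitors and joint degeneration.

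The table gives group means, the highest value and the geometric mean over the 6 libraries, in a normalized unit that it does not name, with a smallest group mean of 1, called the floor. Values per library and depth are not given, so levels are compared between groups and not between genes. The means, the maximum and the geometric mean together restrict what each library can have been, if each group mean is the plain mean of its 3 libraries, and every limit for a library below was computed from them. For 7 of the 10 genes they place the highest library in sham, and for Kif7, Disp1 and Hhat they leave its group unsettled. Over all genes of the authors' deposited table the highest library was in sham for 21.9%, in partial discectomy for 44.6% and unsettled for 33.5%. All 5070 genes placed in sham had the lower mean after partial discectomy, so this placement goes with a lower mean and is not a separate trait. The ratio deposited divides the mean of partial discectomy by that of sham, and a gene was called changed at a deposited adjusted p under 0.05. Osteoblast markers were all detected, with Col1a1 at 34180 with partial discectomy against 27783 in sham in the authors' deposited table. All 8 neutrophil and all 7 erythroid markers listed were called higher after partial discectomy in the authors' deposited table, and fewer cells of a type cannot be told apart from less RNA per cell in such bulk tissue.

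None of the 10 genes was called in either direction, while 9 of the 10 had a lower mean after partial discectomy. Over all genes of the authors' deposited table, 2.28% were called higher and 0.104% lower. The median log2 ratio of the 10 genes was -0.40, beside 0.08 over all genes, and 37.3% of all genes had a ratio under 1. At an unadjusted p under 0.05, 3 of the 10 were lower and 0 higher (Gpr161, Scube2 and Evc), where the authors' deposited table had 3.31% of all genes lower and 10.9% higher. By the 95% limits the same 3 genes lay below equal means, where 3.59% of all genes did. Of the 3 that reached these thresholds, Gpr161 is a brake on the pathway. Scube2, which frees the ligand, and Evc, a helper of Smo, act for the signal. The smallest adjusted p among the 10 was 0.103, for Gpr161.

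**Figure D1:**
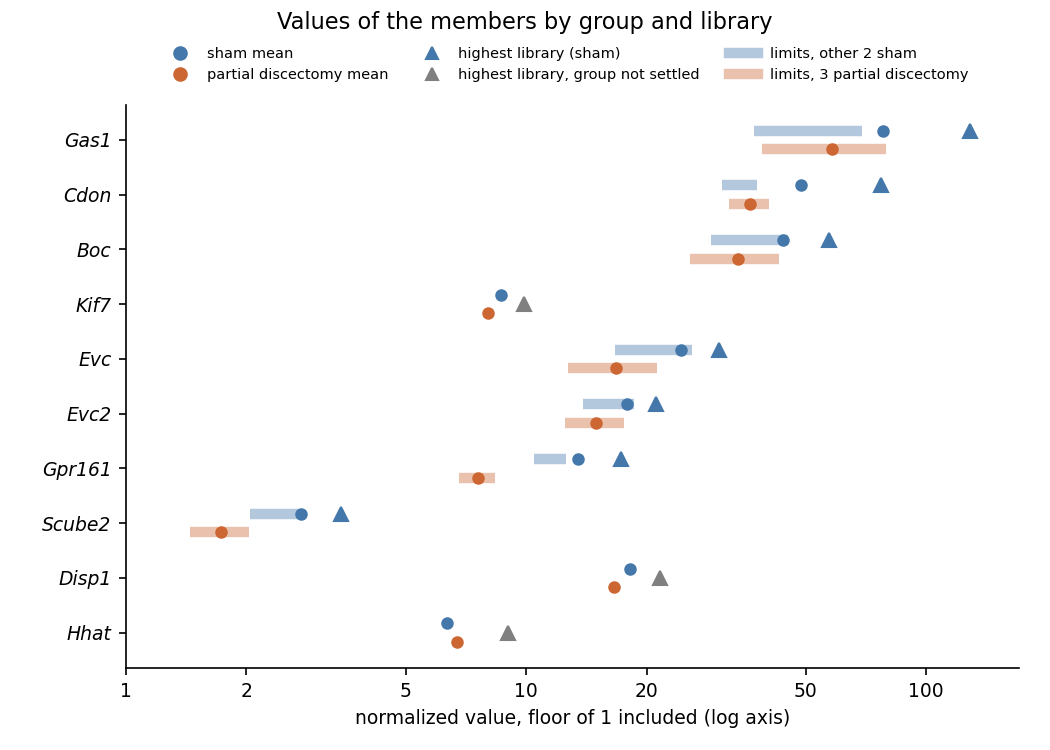
Normalized values of the 10 genes on a log axis, floor of 1 included: circles are the group means, triangles the highest of the 6 libraries, and bars the limits within which the other 2 sham and the 3 partial discectomy libraries must lie. For Kif7, Disp1 and Hhat, where the group of the highest library is unsettled, the triangle is grey and no bars are drawn. The bars and the triangle leave a gap between the groups for Gpr161 and Scube2, while for Gas1 and Cdon the bars of the groups lie over each other and the sham triangle stands apart.

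The sequences before the start sites of Evc and Evc2 are shown because those genes lie head to head. Those of Gpr161 and Scube2 are shown because the limits leave no overlap between their groups. Over all genes the limits show such a split with sham above for 1.86%. Evc (chromosome 5, 37289098 to 37336895, minus strand) and Evc2 (chromosome 5, 37338499 to 37425056, plus strand) start 1604 bases apart in the mm10 positions of the deposited table and run in opposite directions. Each sequence is the 250 bases before a RefSeq start in GRCm38.p6, 5′ to 3′ on the strand of the gene, at chr5:37336882-37337131 for Evc, chr5:37338228-37338477 for Evc2, chr1:165295516-165295765 for Gpr161 (the first of its 2 windows) and chr7:109865680-109865929 for Scube2. Capitals mark the GC box GGGCGG and GTTGCC, a core of the X-box, the element of RFX factors in front of many cilium genes, on either strand, and neighbouring GC boxes may overlap.
Evc: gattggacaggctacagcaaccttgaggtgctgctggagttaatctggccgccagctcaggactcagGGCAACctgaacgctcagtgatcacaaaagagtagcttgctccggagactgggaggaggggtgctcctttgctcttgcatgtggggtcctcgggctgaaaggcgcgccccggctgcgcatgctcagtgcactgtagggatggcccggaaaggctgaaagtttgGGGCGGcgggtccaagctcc
Evc2: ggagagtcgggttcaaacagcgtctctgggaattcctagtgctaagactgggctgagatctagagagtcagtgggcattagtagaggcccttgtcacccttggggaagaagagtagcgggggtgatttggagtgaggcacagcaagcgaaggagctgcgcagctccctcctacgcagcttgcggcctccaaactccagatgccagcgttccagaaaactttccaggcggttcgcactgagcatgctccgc
Gpr161: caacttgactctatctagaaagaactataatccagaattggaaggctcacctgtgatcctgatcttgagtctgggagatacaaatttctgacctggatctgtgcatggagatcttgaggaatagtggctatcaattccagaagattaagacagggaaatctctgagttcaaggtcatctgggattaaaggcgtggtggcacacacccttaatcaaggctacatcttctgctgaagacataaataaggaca
Scube2: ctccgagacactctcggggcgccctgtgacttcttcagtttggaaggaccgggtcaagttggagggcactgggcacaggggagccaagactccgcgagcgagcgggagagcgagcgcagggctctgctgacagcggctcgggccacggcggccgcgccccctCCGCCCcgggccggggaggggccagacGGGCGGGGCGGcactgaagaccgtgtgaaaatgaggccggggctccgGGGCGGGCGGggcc
The Scube2 window holds 5 GC boxes, the Evc window 1 GC box and 1 X-box core, and the windows of Evc2 and Gpr161 neither. Among 11 windows of 9 of the 10 genes, 5 held a GC box and 3 an X-box core, against 32.7% and 10.4% of all 32851 RefSeq windows of this length. The Gli site GACCACCCA was in 0 of the 11 and in 0.225% of all, and says only that these letters are not in these windows. The ratio of observed to expected CpG was 0.819 before Scube2, 0.488 before Evc, 0.546 before Evc2 and 0.0898 before Gpr161, with a median of 0.374 over all windows. In the second window of Gpr161, which is not printed, that ratio was 0.367.

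Gas1, Cdon and Boc bind Hedgehog ligand together with Ptch1, and their means were all lower after partial discectomy with no call. For Gas1, a protein held to the membrane by a lipid anchor (chromosome 13, 60174405 to 60177366), the highest library was a sham library at 128, while the other 2 sham libraries averaged 53.1 and lay between 37.2 and 69.1. Its 3 partial discectomy libraries averaged 58.0 and lay between 38.9 and 79.5, so the groups overlapped and 1 sham library stood above the rest. The authors' deposited table gave Gas1 a ratio of 0.742 (with 95% limits of 0.419 and 1.31 and an adjusted p of 0.763). That 1 library held 54.7% of the sham total of Gas1, and without it the ratio was 1.09. Leaving out a highest sham library raises a ratio by construction, and it took the ratio above 1 for 2 of the 7 genes concerned, Gas1 and Cdon, and for 18.0% of all 5070 genes of that kind. The median log2 ratio of the 7 genes went from -0.43 to -0.13 without the highest library, beside -0.24 to -0.12 over the 5070 genes. On the other strand Gas1 shares 685 bases with the long noncoding gene Gm48488, at 2.08 with partial discectomy against 2.78 in sham (ratio 0.749).

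Cdon, a receptor of the immunoglobulin superfamily that also acts in muscle differentiation (chromosome 9, 35421128 to 35507653), was alike. Its highest library, in sham, was at 77.2, and the other 2 sham libraries lay between 30.9 and 37.8 with a mean of 34.3. The 3 partial discectomy libraries of Cdon lay between 32.1 and 40.5 with a mean of 36.2. All libraries of Cdon but 1 therefore stood between 30.9 and 40.5, in both groups. The ratio of Cdon was 0.745 (with 95% limits of 0.464 and 1.19 and an adjusted p of 0.692), per the authors' deposited table, and 1.05 without the sham library that held 52.9% of its group's total. Among the genes whose highest library was in sham, the median share of that library was 38.6%, and 4.04% of them had a share as large as that of Cdon. On the same strand Cdon shares 163 bases with the small nuclear RNA gene Gm25630, near the floor at 1.15 with partial discectomy against 1.28 in sham.

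Boc, the close relative of Cdon (chromosome 16, 44485049 to 44558898), differed in part from this. Its highest library, again in sham, stood at 57.2, the other 2 sham libraries between 28.9 and 45.2, and the partial discectomy libraries between 25.6 and 42.9. Whether the groups of Boc overlap is not settled by these limits. In the authors' deposited table its means were 33.9 with partial discectomy against 43.8 in sham, a ratio of 0.775 (with 95% limits of 0.533 and 1.13 and an adjusted p of 0.549). Without the highest library the ratio of Boc was 0.916, still under 1.

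Gpr161 had the lowest deposited ratio of the 10 and a clear split of the libraries. This receptor of the ciliary membrane keeps the pathway off by raising cyclic AMP, so that protein kinase A turns Gli3 into its repressor form (chromosome 1, 165295789 to 165326746). Its highest sham library was at 17.3 and the other 2 sham libraries between 10.5 and 12.6, while all 3 partial discectomy libraries lay between 6.79 and 8.38. Every sham library of Gpr161 was therefore above every partial discectomy library. The limits show such a split with sham above for 1.86% of all genes and with partial discectomy above for 7.12%. The means of Gpr161 were 7.57 with partial discectomy against 13.4 in sham in the authors' deposited table, a ratio of 0.563 (with 95% limits of 0.403 and 0.788, an unadjusted p of 0.00435 and an adjusted p of 0.103). Without the highest library the ratio of Gpr161 was 0.657.

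Evc and Evc2 form a complex that holds the active transducer Smo near the base of the cilium. The highest library of Evc was in sham at 30.4, the other 2 sham libraries lay between 16.6 and 26.0, and the 3 partial discectomy libraries between 12.7 and 21.3. Overlap of the groups of Evc is not settled by these limits. By the authors' deposited table Evc had means of 16.8 with partial discectomy against 24.3 in sham, a ratio of 0.690 (with 95% limits of 0.486 and 0.980, an unadjusted p of 0.0397 and an adjusted p of 0.318). Evc2, its neighbour, had a highest library at 21.1 in sham, other sham libraries between 13.9 and 18.6, and partial discectomy libraries between 12.5 and 17.6. The means of Evc2 were 15.0 with partial discectomy against 17.9 in sham in the authors' deposited table, a ratio of 0.839 (with 95% limits of 0.620 and 1.14 and an adjusted p of 0.624). Both partners thus had the lower mean after partial discectomy, neither was called, and the 95% limits of their ratios overlap. Without the highest library the ratio was 0.788 for Evc and 0.922 for Evc2. Evc shares 3037 bases with Crmp1 on the other strand, which was near the floor at 1.30 and 1.27 in the authors' deposited table, and whether reads were counted by strand is not given in the sources used here.

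Kif7, a kinesin that orders the cilium tip where Gli proteins gather, showed little difference (chromosome 7, 79698098 to 79715721). Its means were 8.03 with partial discectomy against 8.64 in sham, with a highest library at 9.88, and the ratio was 0.930 (with 95% limits of 0.672 and 1.29 and an adjusted p of 0.840), per the authors' deposited table. On the other strand Kif7 shares 2076 bases with the long noncoding gene 9330171B17Rik (ratio 0.948) and 52 bases with Ticrr (ratio 1.92, adjusted p = 0.289), per the authors' deposited table.

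**Figure D2:**
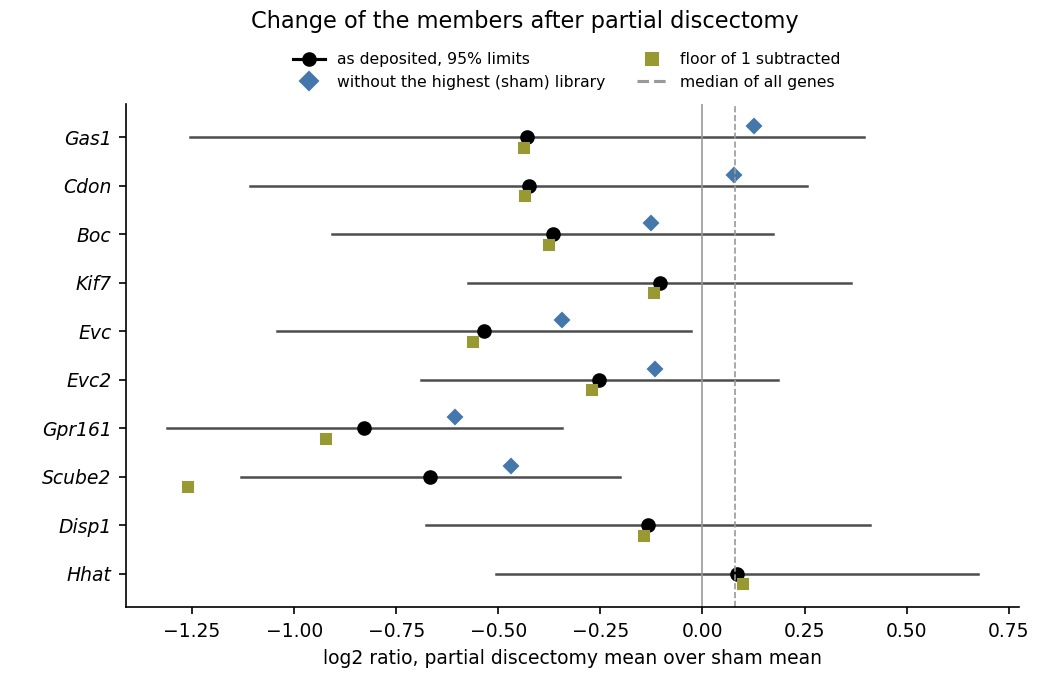
Log2 ratios of the 10 genes, partial discectomy over sham: black circles with lines are the deposited ratios with 95% limits, diamonds the ratio without the highest library where that is a sham library, and squares the ratio with the floor subtracted. The diamonds of Gas1 and Cdon lie above 0, at 0.13 and 0.08, and those of Gpr161, Scube2 and Evc stay below it.

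Scube2, a secreted protein that helps lift the lipid-bearing ligand off the cell, was measured near the floor (chromosome 7, 109798676 to 109865680). Its highest library was in sham at 3.44 and the other 2 sham libraries lay between 2.04 and 2.74, while the partial discectomy libraries lay between 1.44 and 2.03. The groups of Scube2 did not overlap, by a narrow gap. In the authors' deposited table its means were 1.73 with partial discectomy against 2.74 in sham, a ratio of 0.630 (with 95% limits of 0.457 and 0.869, an unadjusted p of 0.0109 and an adjusted p of 0.172). With the floor taken off, the means of Scube2 were 0.727 and 1.74, a ratio of 0.417, so the size of its difference rests on how the floor is read. Without the highest library its ratio was 0.722.

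Disp1 and Hhat, which act in the cells that make ligand, had 95% limits on both sides of 1. Disp1, the membrane transporter that hands the ligand over to Scube2, had means of 16.6 with partial discectomy against 18.2 in sham, a highest library at 21.7 and a ratio of 0.911 (with 95% limits of 0.625 and 1.33 and an adjusted p of 0.842), per the authors' deposited table (chromosome 1, 183086266 to 183221523). A processed pseudogene, BC085271, lies within Disp1 on the same strand. Hhat, the enzyme that adds palmitate to the ligand, was the 1 gene with the higher mean after partial discectomy, 6.73 against 6.35 in sham, in the authors' deposited table (chromosome 1, 192496711 to 192771224). Its ratio was 1.06 (with 95% limits of 0.704 and 1.60 and an adjusted p of 0.936) with a highest library at 8.99 in the authors' deposited table, and its log2 ratio of 0.08 was close to that of the median gene. Hhat shares 13450 bases with Kcnh1 on the other strand, which had a ratio of 1.07 in the authors' deposited table.

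The wider pathway had no call either. Of 48 other Hedgehog genes listed, 44 were in the table, with 20 ratios above 1, 24 under 1 and a median log2 ratio of -0.03. At an unadjusted p under 0.05 there were 3 lower and 0 higher. One was Gpc3, a glypican that binds Hedgehog ligand and limits the signal, at 2.53 with partial discectomy against 5.40 in sham by the authors' deposited table (a ratio of 0.469 with 95% limits of 0.312 and 0.706 and an adjusted p of 0.0676). The others were the ligand decoy Hhip (0.614) and the transcription factor Gli3 (0.661) in the authors' deposited table. For Gpc3, Hhip and Gli3 the highest library was in sham, and without it the ratios were 0.534, 0.743 and 0.753. Gpc3 was low beside the floor, as Scube2 was, so the size of its ratio also rests on how the floor is read.

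Of 10 core genes measured, 6 had a ratio under 1. Ptch1, the receptor, had a ratio of 0.845 in the authors' deposited table, and its highest library, in sham, held 52.7% of the sham total, a share close to those of Gas1 and Cdon. Without that library the ratio of Ptch1 was 1.19. Smo had a ratio of 0.823 and Gli2 one of 0.800 by the authors' deposited table. Their highest library was also placed in sham, and the ratios computed without it were 0.902 and 0.870. Ptch1, Smo and Gli2 had 95% limits on both sides of 1 in the authors' deposited table. So had Gli1 (1.03), the ligands Ihh (1.12) and Dhh (1.04) and the Gli-binding inhibitor Sufu (0.956), per the authors' deposited table.

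The relatives of Scube2, Disp1 and Hhat had no call. In the authors' deposited table Scube1 had a ratio of 1.01 (0.693 to 1.48), Scube3 of 0.872 (0.580 to 1.31), Disp2 of 1.09 (0.880 to 1.35) and Hhatl of 0.935 (0.706 to 1.24). Disp2, at 1.35 with partial discectomy against 1.24 in sham, and Hhatl, at 1.21 against 1.29, lay nearer the floor than Scube2. The size of their ratios therefore rests on how the floor is read. The 95% limits of Scube1 and Scube3 overlap those of Scube2, and no difference between these genes was tested. Of the 5 partners of Smo at the membrane, among them the Evc complex members Efcab7 and Iqce, 4 had a ratio under 1. One of the 2 taken by mean value was Mgrn1, a ubiquitin ligase that acts on Smo, with a ratio of 1.15 by the authors' deposited table. The 16 genes of Gli processing had ratios from 0.793 to 1.32, 8 on each side of 1. The 2 taken by mean value, Gnas of the cyclic AMP route and the casein kinase gene Csnk1a1, stood at ratios of 1.11 and 1.16 by the authors' deposited table.

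**Figure D3:**
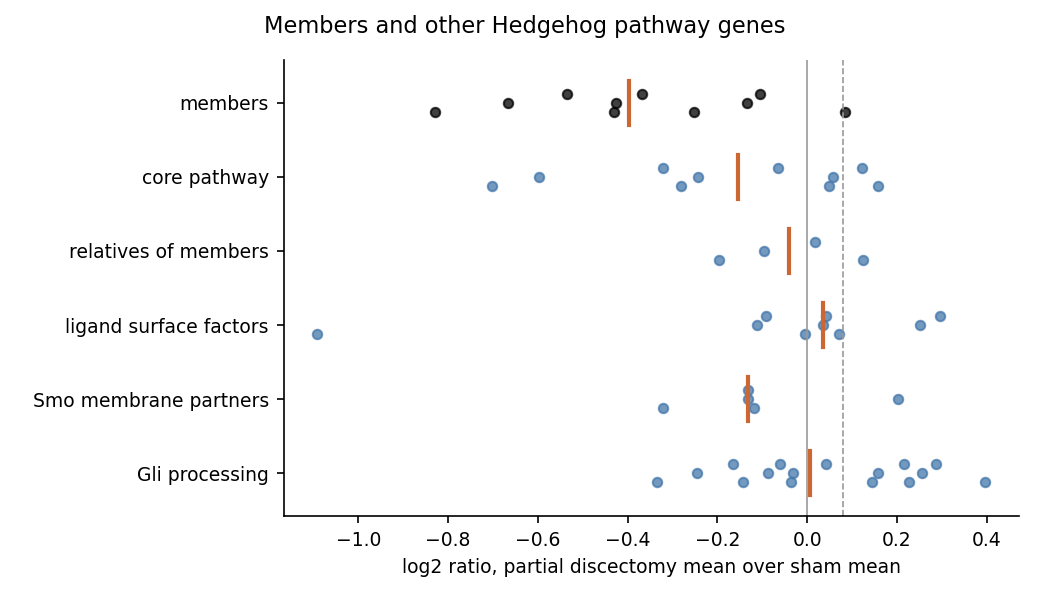
Log2 ratios, partial discectomy over sham, of the 10 genes (black) and of 44 other Hedgehog pathway genes by class (blue), 1 point a gene, with class medians as bars and the median of all genes as a dashed line. The 10 genes have a median of -0.40 and the core pathway one of -0.15, and the single point near -1.1 is Gpc3.

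Markers of fibroblasts and of skeletal muscle were also lower in mean, with no call, and they are given because Gas1 is known from fibroblasts and Cdon from muscle progenitors. All 7 fibroblast markers had a ratio under 1, their summed level above the floor was 4396 with partial discectomy against 6482 in sham, and none was at the floor. Most of that difference was in Col3a1, at 2839 with partial discectomy against 4515 in sham in the authors' deposited table. For 6 of the 7 the highest library was in sham, with 39.0% to 49.6% of the sham total, and without it 5 of these 6 ratios were still under 1. All 6 skeletal muscle markers in the table had a ratio under 1, with a summed level above the floor of 139 with partial discectomy against 203 in sham. For 5 of the 6 the highest library was in sham and held 63.2% to 69.0% of the sham total, and without it all 5 ratios lay between 1.08 and 1.54. Myod1 and Pax7 of that list were absent from the authors' deposited table, so nothing is said of them. Whether the high sham library of the muscle markers is that of Gas1, Cdon and Ptch1 cannot be read from the table, and the part of these cell types in the values of the 10 genes was not tested. Osteoblast, endothelial and chondrocyte markers had median log2 ratios of 0.34, 0.55 and -0.04, and no call. For 2 of the 7 chondrocyte markers, Matn3 and Sox9, the highest library was in sham, and for 5 its group was unsettled. That library held 70.4% of the sham total of Matn3 and 49.8% of that of Sox9. Without it their ratios of 0.656 and 0.865 became 1.48 and 1.15. So a high sham library was not particular to fibroblast and muscle markers. Whether it is the high library of Gas1 and Cdon cannot be read either.

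**Figure D4:**
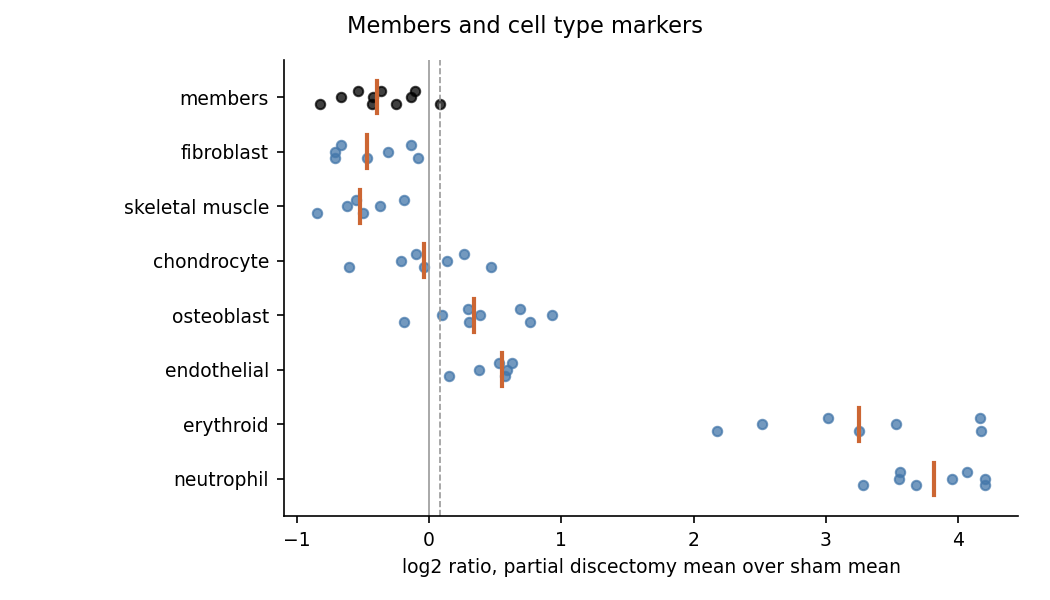
Log2 ratios, partial discectomy over sham, of the 10 genes (black) and of cell type markers (blue), 1 point a gene, with list medians as bars and the median of all genes as a dashed line. The points of the 10 genes, from -0.83 to 0.08, overlap in range with fibroblast, skeletal muscle and chondrocyte markers, whose medians are -0.47, -0.53 and -0.04. Of these markers Col2a1 (0.46), Col11a1 (0.27) and Col9a1 (0.14) of chondrocytes lie above the range of the 10 genes, and Myh4 (-0.85) of muscle lies below it. Of the osteoblast markers only Runx2 (-0.19) lies in the range of the 10 genes. All points of the 10 genes lie below every neutrophil, erythroid and endothelial marker, with medians of 3.82, 3.25 and 0.55.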

How the data were processed

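Subchondral bone of the mandibular condyle was profiled by RNA sequencing in 3 sham and 3 partial discectomy libraries, grouped by sample title. STAR 2.6.1d and mm10 were used, per the submitters' processing notes; the counter, filter, normalization and model behind the table are not stated in those notes or elsewhere in the sources used. The authors deposited 1 table with group means, total, maximum and means over the libraries as normalized signal, the ratio, its log2, a signed fold change with 95% limits (a score, turned here into ratios), a p-value and an adjusted p-value. The adjusted p-values deposited matched a Benjamini-Hochberg adjustment over all 23170 genes. A second file held gene positions only and was not used. Depth is unknown, so no interval or floor from counts is given. The p-values measure a spread that may be technical.

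The total was 6 times the arithmetic mean for every gene, and in the 15 genes above the floor in 1 library the geometric mean was the sixth root of the maximum. The highest library was assigned to a group where only that group could hold it, given both group sums, the maximum and the product of the 6 values; limits of the other libraries follow from the same sums. This takes each group mean as the plain mean of its 3 libraries, each at least 1; no gene of the 23170 went against it. The step was tested on simulated data. Different genes may have different highest libraries.

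The 10 genes, the other lists and the rule for named genes (all 10, all core genes and relatives, and in each other class those at an unadjusted p under 0.05 or else the 2 with the highest mean) were chosen with earlier results of these data known. Some genes of the lists are not reported here, while counts include them. Promoter windows are from RefSeq (GRCm38.p6), of which 9 of 10 genes matched; as a check of strand, the last 25 of the 50 bases that RefSeq's table gives after the start, which are not printed, were found in a GENCODE transcript of the gene for 8 of 11 windows. Python 3.11.15, pandas 2.3.3 and numpy 2.4.6 were used.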

Additional observations from a re-analysis of the deposited data

How the results depend on the processing

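The count of 0 called genes among the 10 was the same when the deposited p-values were readjusted over genes whose mean exceeded the floor by at least 5 or by at least 1, or over protein-coding genes. With the deposited 95% limits as the rule, or an unadjusted p under 0.05, 3 were lower and 0 higher, and the same counts held for the 44 other pathway genes. Over all genes, 528 were called higher and 24 lower, against 233 and 10 when readjusted at a mean of at least 5, 2566 and 832 by the 95% limits, and 2532 and 767 at an unadjusted p under 0.05. Without the highest library the log2 ratio turned from -0.43 to 0.13 for Gas1 and from -0.43 to 0.077 for Cdon, and it kept its sign for Boc (-0.13), Evc (-0.34), Evc2 (-0.12), Gpr161 (-0.61) and Scube2 (-0.47). For the 3 genes with an unsettled library the value without it was 0.0026 or -0.28 for Kif7, 0.0099 or -0.37 for Disp1 and 0.42 or -0.18 for Hhat, if it was sham or partial discectomy. Centred on the summed group means Hhat was at -0.049. With the floor subtracted Scube2 moved from -0.67 to -1.26, by construction of a ratio near the floor. The median over the 10 genes kept its sign with the floor subtracted and under both centres, and that over the 7 genes with a settled library shrank from -0.43 to -0.13 without it. Libraries could not be left out by number. No paired analysis was possible because the table holds group means and no values per library. Unknown depth limits what can be said of Scube2, and with 3 libraries a group the limits of most ratios leave moderate changes in either direction.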
